A study of Mus musculus with 12 samples.

Results

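The breakdown of phenylalanine and tyrosine was followed through 8 genes, *Qdpr*, *Pcbd1*, *Gch1*, *Tat*, *Hpd*, *Hgd*, *Gstz1* and *Fah*, taken by symbol from the 24340 gene entries of each of 2 RNA-seq tables. All 8 had an entry in both tables. The first table compares *Hnf4a* cKO livers with control livers (3 samples each). The cKO mice carried *Hnf4a* fl/fl alleles and *Alb-CreERT2*, a tamoxifen-dependent Cre recombinase under the *Albumin* promoter. Adults received tamoxifen every other day until livers were collected on day 7. The control mice are given in the methods as *Hnf4a* fl/fl and Cre negative without tamoxifen, in a supplementary legend as the same genotype without tamoxifen, and in the sample labels as WT, so loss of HNF4A, exposure to tamoxifen and, under the Cre-negative description, Cre cannot be told apart between the groups. The second table compares NIH 3T3 cells, a mouse fibroblast line, transduced with a lentivirus carrying mouse *Hnf4a* (isoform 2) and eGFP on 1 RNA (HNF4A EE cells) with cells transduced with the empty vector (control cells), 3 samples each, 72 h after transduction. Each table gives 1 FPKM per gene and group, its fragments relative to exon length and sequencing depth, with the samples of a group already merged by the authors. Neither a spread between samples nor a test could therefore be computed, and every difference below is a description of the merged values.

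Phenylalanine is converted to tyrosine in the liver in a reaction that consumes tetrahydrobiopterin (BH4), a cofactor made from GTP. *Gch1* encodes GTP cyclohydrolase, which opens BH4 synthesis, and *Pcbd1* and *Qdpr* encode the dehydratase and the reductase that regenerate BH4 after use. Tyrosine is then taken apart by tyrosine aminotransferase (*Tat*), hydroxyphenylpyruvate dioxygenase (*Hpd*), homogentisate dioxygenase (*Hgd*), maleylacetoacetate isomerase (*Gstz1*) and fumarylacetoacetate hydrolase (*Fah*), which releases fumarate and acetoacetate. In humans, loss of *HGD* causes alkaptonuria and loss of *FAH* causes hereditary tyrosinaemia. The liver is the main site of this pathway, and HNF4A is a nuclear receptor that controls many hepatocyte genes.

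The sequence just before the transcription start is shown for the member most reduced in cKO livers (*Fah*), the next most reduced (*Hgd*), the aminotransferase that opens the tyrosine branch (*Tat*) and the least reduced member (*Pcbd1*). These are RefSeq windows of 250 bases on GRCm38.p6, the assembly also called mm10, written 5′ to 3′ on the strand of the gene and ending just before the RefSeq start. For *Fah* the GENCODE gene begins further upstream, so that the window before its RefSeq start lies inside the GENCODE gene. Capitals mark the CCAAT box (CCAAT), the GC box (GGGCGG), the TATA box (TATAAA) and, in *Pcbd1*, an HNF1 element, on either strand.
*Fah* (chr7:84605943-84606192, minus strand): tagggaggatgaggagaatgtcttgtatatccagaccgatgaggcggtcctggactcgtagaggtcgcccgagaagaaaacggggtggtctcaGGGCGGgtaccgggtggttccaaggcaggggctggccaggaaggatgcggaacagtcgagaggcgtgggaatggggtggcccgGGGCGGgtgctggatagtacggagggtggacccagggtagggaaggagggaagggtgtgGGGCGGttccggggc
*Hgd* (chr16:37579903-37580152, plus strand): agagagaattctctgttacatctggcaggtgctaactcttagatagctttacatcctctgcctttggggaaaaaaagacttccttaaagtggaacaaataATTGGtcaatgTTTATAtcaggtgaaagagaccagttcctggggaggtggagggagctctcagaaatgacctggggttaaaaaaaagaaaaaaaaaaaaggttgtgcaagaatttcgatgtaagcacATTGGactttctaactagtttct
*Tat* (chr8:109990186-109990435, plus strand): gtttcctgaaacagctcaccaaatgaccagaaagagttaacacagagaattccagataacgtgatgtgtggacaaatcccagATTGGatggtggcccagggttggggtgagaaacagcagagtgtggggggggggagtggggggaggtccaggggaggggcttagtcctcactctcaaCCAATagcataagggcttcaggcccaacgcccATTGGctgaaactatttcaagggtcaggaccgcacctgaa
*Pcbd1* (chr10:61089081-61089330, plus strand): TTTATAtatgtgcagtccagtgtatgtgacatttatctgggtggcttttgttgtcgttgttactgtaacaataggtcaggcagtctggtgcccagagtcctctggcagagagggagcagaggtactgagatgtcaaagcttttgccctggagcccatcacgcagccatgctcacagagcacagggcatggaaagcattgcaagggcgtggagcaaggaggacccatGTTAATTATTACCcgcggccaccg

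All 8 genes had such a window in the RefSeq table, and *Gstz1* had 2, which makes 9 windows. CAAAGTNCA, 1 form of the HNF4 element, searched on both strands, was in 0 of the 9 and in 1.19% of all 32851 windows of the same length. At so low a share, 0 of 9 says little about these promoters. Other forms of the element were not searched. Nor were enhancers, where the paper places most HNF4A binding sites. The CCAAT box was in 6 of the 9 (33.8% of all windows) and the GC box in 6 of the 9 (32.7% of all). The TATA box was in 3 of the 9, each time on the strand opposite to the gene and 134 or more bases before the start, against 12.4% of all windows. The *Pcbd1* window held GTTAATTATTACC, 12 to 24 bases before the start, which is a form of the HNF1 element. The element was searched with any base at the seventh and the twelfth position, a choice made after the *Pcbd1* sequence had been read, and 10 of the 32851 windows (0.0304%) hold it. PCBD1 is also known as a dimerization cofactor of HNF1 transcription factors. A match says only that these letters are in the window, and binding was not measured here.

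*Hnf4a* itself had 144 FPKM in cKO livers and 275 FPKM in control livers, and 1758 FPKM in HNF4A EE cells against 0.639 FPKM in control cells. The source of the *Hnf4a* RNA left in cKO livers was not tested, and the FPKM does not separate its exons. The paper reports by western blot that HNF4A protein was depleted in hepatocytes after tamoxifen. Of 9 hepatocyte markers with a mean FPKM of 1 or more in the livers, 6 had lower and 1 had higher levels in cKO livers by the limit given below, with a summed 22972 FPKM in cKO livers and 31498 FPKM in control livers. The sum was lower mostly through *Trf* (2224 FPKM in cKO livers, 10037 FPKM in control livers) and *Ttr* (1345 and 6339). *Fgb* (5472 and 3290), *Apoa1* (11880 and 9012) and *Cps1* (1669 and 1553) had higher values in cKO livers, though only *Fgb* passed the limit. A further marker, *Alb*, which encodes albumin, is listed at 0 FPKM in both liver groups, so a listed 0 in these tables does not show that a gene was silent. Summed FPKM of other cell types in cKO and control livers were 198 and 171 for 8 macrophage markers, 42.8 and 52.5 for 7 endothelial markers, 111 and 144 for 8 markers of stellate cells and fibroblasts, 42.1 and 29.4 for 6 cholangiocyte markers, 1.53 and 3.52 for 6 lymphoid markers and 38.4 and 3.34 for the 5 neutrophil markers with an entry. The macrophage sum was higher through *Marco* (43.4 FPKM in cKO livers, 3.91 FPKM in control livers), while the other 7 macrophage markers were slightly lower, between −0.43 and −0.02 on the log2 scale. The part of these cells in the values below was not tested. The listed FPKM sum to 458704 in cKO livers and 601955 in control livers, and to 478182 in HNF4A EE cells and 528286 in control cells. The number of reads behind them is unknown.

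The 8 genes together had lower RNA levels in cKO livers. A gene is called lower or higher here when the log2 ratio of FPKM + 1 is at or beyond −0.5 or 0.5, the fold limit of the study's methods, without any p. By that limit 7 of the 8 members of the pathway were lower in cKO livers, 0 were higher, and *Pcbd1* lay inside the limit. Among all 10909 entries with a mean FPKM of 1 or more, 19.1% were lower and 14.8% were higher. When each group was scaled to the same total FPKM, those shares were 11.2% and 35.3%, the median of all those entries moved to 0.32, and 6 of the 8 genes were lower. The median log2 ratio was −1.17 over the 8 genes and −0.01 over all of those entries. Highly expressed genes were lower more often, so the count was also read, as a choice made after the values were seen, against the 1716 entries at least as abundant as *Gch1*, the least abundant member (mean of 42.2 FPKM), of which 33.8% were lower. At a stricter limit of 1 on the log2 scale, 5 of the 8 were lower, against 8.97% of the 10909 entries and 21.5% of the 1716. The summed FPKM of the 8 genes was 2725 in cKO livers and 6401 in control livers, or 0.594% and 1.06% of all listed FPKM. In whole livers, fewer hepatocytes and less RNA per hepatocyte cannot be told apart.

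**Figure D1:**
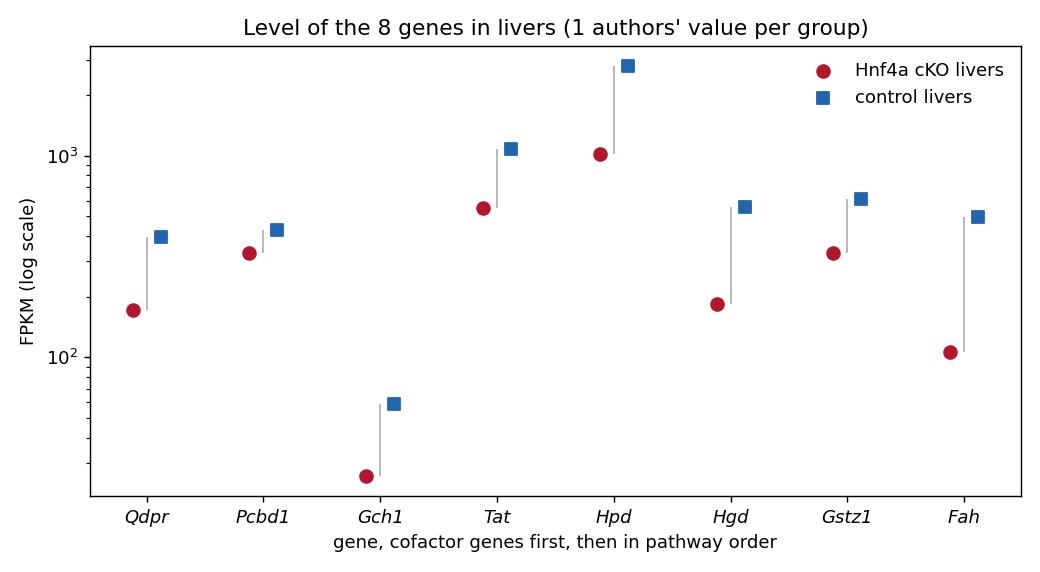
FPKM on a log axis of the 8 genes in *Hnf4a* cKO livers (red circles) and control livers (blue squares), 1 merged value per group with no error bar. Every red circle lies below its blue square, with the widest gap at *Fah* (107 and 500 FPKM) and the narrowest at *Pcbd1* (330 and 428 FPKM).

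*Fah*, which encodes the hydrolase of the last step, had the largest reduction. It is on chromosome 7 from 84585159 to 84606722, on the minus strand (GENCODE M21 on GRCm38, as for all coordinates of genes here). It had 106.8 FPKM in cKO livers and 499.5 FPKM in control livers, so that cKO livers held 21.4% of the control level. The log2 ratio was −2.21, and 313 of the 10909 expressed entries (2.87%) had a lower one. *Hgd*, encoding the dioxygenase that opens the aromatic ring of homogentisate (chromosome 16, 37580153 to 37632020, plus strand), came next. It had 183 FPKM in cKO livers and 556 FPKM in control livers, or 33.0% of control, with a log2 ratio of −1.60 and 4.93% of expressed entries below it.

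*Hpd*, whose product makes homogentisate, was the most abundant of the 8 in both groups (chromosome 5, 123171807 to 123182727, minus strand). It had 1023 FPKM in cKO livers and 2777 FPKM in control livers, a log2 ratio of −1.44. It ranked 55 among all entries of cKO livers and 21 among those of control livers, so it stayed among the most abundant RNAs while at 36.8% of its control level. *Tat*, encoding the enzyme that removes the amino group of tyrosine (chromosome 8, 109990437 to 109999803, plus strand), had 554 FPKM in cKO livers and 1075 FPKM in control livers, a log2 ratio of −0.96. *Gstz1*, encoding the isomerase between HGD and FAH (chromosome 12, 87147165 to 87164723, plus strand), had 331 FPKM in cKO livers and 612 FPKM in control livers, a log2 ratio of −0.89. Exons of *Gstz1* overlap those of *Pomt2* on the other strand by 465 bases, and whether the counting used strand is not stated in the sources here. *Pomt2* had 4.04 FPKM in cKO livers and 6.57 FPKM in control livers, far below *Gstz1*.

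The 3 cofactor genes differed among themselves. *Qdpr*, encoding dihydropteridine reductase (chromosome 5, 45434021 to 45450236, minus strand), had 173 FPKM in cKO livers and 394 FPKM in control livers, a log2 ratio of −1.19. Its exons overlap 332 bases of an antisense RNA in GENCODE, so its value may hold reads of both. *Gch1* (chromosome 14, 47153895 to 47189413, minus strand) had 25.8 FPKM in cKO livers and 58.6 FPKM in control livers, a log2 ratio of −1.15 at a much lower level than the others. *Pcbd1* (chromosome 10, 61089331 to 61094324, plus strand) had 330 FPKM in cKO livers and 428 FPKM in control livers. Its log2 ratio of −0.38 had 23.9% of expressed entries below it, whereas the other 7 genes had between 2.87% and 10.5% below them.

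The order of levels, which FPKM allows since it divides by length, was *Hpd*, *Tat*, *Gstz1*, *Pcbd1*, *Hgd*, *Qdpr*, *Fah* and *Gch1* in cKO livers, and *Hpd*, *Tat*, *Gstz1*, *Hgd*, *Fah*, *Pcbd1*, *Qdpr* and *Gch1* in control livers. *Hpd* and *Tat* led and *Gch1* came last in both. Neighbours such as *Gstz1* and *Pcbd1* in cKO livers (331 and 330 FPKM) cannot be ordered without the spread between livers. The proportions between steps differed most around *Fah*. *Hpd* FPKM was 9.58 times that of *Fah* in cKO livers and 5.56 times in control livers, and *Gstz1* was at 3.10 times *Fah* in cKO livers and 1.23 times in control livers. *Pcbd1* was at 1.91 times *Qdpr* in cKO livers and 1.09 times in control livers. *Hpd* over *Hgd* moved little, at 5.58 in cKO livers and 4.99 in control livers, and so did *Qdpr* over *Gch1*, at 6.67 and 6.72. Ratios within a group do not depend on the scaling between the groups.

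**Figure D2:**
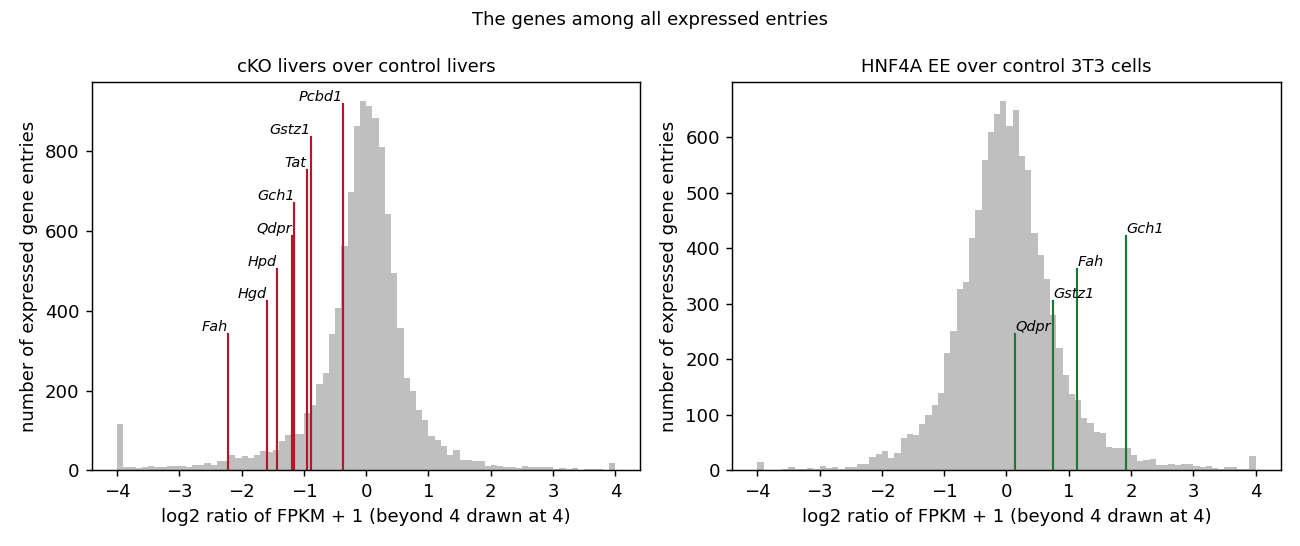
Histograms of the log2 ratio of FPKM + 1 for all entries with a mean FPKM of 1 or more, in cKO livers over control livers (left, 10909 entries) and in HNF4A EE over control 3T3 cells (right, 10521 entries). Lines mark the pathway genes that pass this floor, and their heights only separate the labels. The 8 lines on the left lie between −2.21 and −0.38, and the 4 on the right between 0.14 and 1.93.

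In 3T3 cells 4 of the 8 genes could be compared, and 3 of these were higher with HNF4A. Of the 8 genes, 4 had a mean FPKM of 1 or more (*Qdpr*, *Gch1*, *Gstz1* and *Fah*), and each of these was already at 3.08 FPKM or more in control cells. Of the 4, 3 were higher in HNF4A EE cells, 0 were lower and *Qdpr* lay inside the limit. Among all 10521 entries above the same floor, 22.5% were higher and 22.9% were lower, and the median log2 ratio was 0.95 over the 4 genes and −0.01 over those entries. With 4 genes the count rests on few values. At the limit of 1 on the log2 scale, 2 of the 4 were higher, against 9.11% of all entries. Of the 7251 entries at least as abundant as *Gch1* (mean of 8.78 FPKM), 22.1% were higher, and 8.61% at the limit of 1. The summed FPKM of the 8 genes was 138 in HNF4A EE cells and 96.2 in control cells, most of it from *Qdpr*.

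*Gch1* had the largest difference, with 14.5 FPKM in HNF4A EE cells and 3.08 FPKM in control cells, a 4.71-fold higher level. Its log2 ratio of 1.93 exceeded that of 97.7% of expressed entries. *Fah* had 25.4 FPKM in HNF4A EE cells and 11.0 FPKM in control cells (2.31-fold, log2 ratio 1.14). *Gstz1* had 19.7 FPKM in HNF4A EE cells and 11.3 FPKM in control cells (1.75-fold, log2 ratio 0.75). *Pomt2*, which overlaps it, had 12.5 FPKM in HNF4A EE cells and 5.59 FPKM in control cells, a level close enough to *Gstz1* that shared reads could matter here, which was not tested. *Qdpr* was the most abundant of the 8 in these cells, with 77.8 FPKM in HNF4A EE cells and 70.7 FPKM in control cells, a log2 ratio of 0.14.

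The other 4 genes are listed at or near 0 FPKM in both groups of cells, which, as for *Alb* in livers, does not show that they were silent. *Hgd* had 0.691 FPKM in HNF4A EE cells and 0.084 FPKM in control cells. That is low against 556 FPKM in control livers, although the tables were normalized separately, and the number of fragments behind it is unknown. *Pcbd1* had 0.0271 FPKM in HNF4A EE cells and is listed at 0 in control cells. *Tat* and *Hpd*, the most abundant of the 8 in livers, are listed at 0 in both groups of cells. The 9 other hepatocyte markers and *Alb* were low too, with a summed 1.44 FPKM in HNF4A EE cells and 0.056 FPKM in control cells. Of the 8 fibroblast markers, 6 passed the floor, and in HNF4A EE cells 4 of them were lower and 2 lay inside the limit. Among all expressed entries of the cells, 22.9% were lower. Summed FPKM of the markers were 463 in HNF4A EE cells and 8139 in control cells. Most of the control sum came from *S100a4* (59.5 FPKM in HNF4A EE cells, 4519 FPKM in control cells) and *Vim* (237 and 2863).

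**Figure D3:**
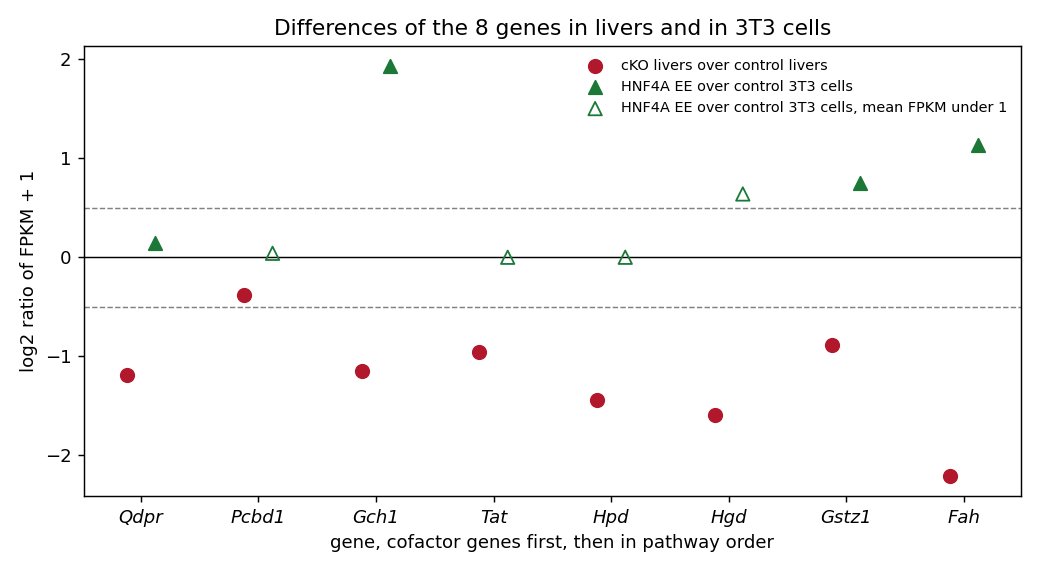
Log2 ratio of FPKM + 1 of the 8 genes in cKO livers over control livers (red circles) and in HNF4A EE over control 3T3 cells (green triangles, open where the mean FPKM is under 1), with dashed lines at −0.5 and 0.5. Among genes with filled symbols in both comparisons, *Gch1*, *Gstz1* and *Fah* lie beyond the limit in both, below 0 in livers and above 0 in 3T3 cells. The open triangle of *Hgd* lies at 0.64 but rests on 0.691 FPKM in HNF4A EE cells and 0.084 FPKM in control cells.

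Side by side, *Gch1*, *Gstz1* and *Fah* were lower in cKO livers, with log2 ratios of −1.15, −0.89 and −2.21, and higher in HNF4A EE cells, with 1.93, 0.75 and 1.14. The order of size differed, since *Fah* led in the livers and *Gch1* in the cells. *Qdpr* was lower in cKO livers (−1.19) and close to its control level in HNF4A EE cells (0.14). The other 4 genes were under the floor in the cells, so their ratios there were not counted. The tables share no samples, and whether the responses differ between livers and cells was not tested.

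The other genes of BH4 supply were split. Of 6 genes, which make or regenerate BH4 or act on its enzymes, 3 were lower and 1 was higher in cKO livers. The other 2 lay inside the limit, and the median log2 ratio was −0.50. Among all expressed entries, 19.1% were lower and 14.8% higher. *Gchfr* encodes the feedback regulator through which BH4 inhibits GTP cyclohydrolase and phenylalanine stimulates it. It had 14.1 FPKM in cKO livers and 248 FPKM in control livers, a log2 ratio of −4.04, a larger reduction than that of *Gch1*. *Gchfr* was thus at 0.547 times the FPKM of *Gch1* in cKO livers and at 4.22 times in control livers. *Dnajc12*, a co-chaperone known to assist the aromatic amino acid hydroxylases, was the 1 gene that was higher, with 82.4 FPKM in cKO livers and 10.3 FPKM in control livers (log2 ratio 2.88). *Spr*, sepiapterin reductase of the last step of BH4 synthesis, had 68.7 FPKM in cKO livers and 133 FPKM in control livers.

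In 3T3 cells 5 of these 6 genes passed the floor, and 2 were higher and 0 lower. Among all expressed entries of the cells, 22.5% were higher and 22.9% lower. *Gchfr* had 147 FPKM in HNF4A EE cells and 71.6 FPKM in control cells (log2 ratio 1.03), and *Spr* had 98.3 FPKM in HNF4A EE cells and 63.1 FPKM in control cells (0.63). *Gch1*, *Gchfr* and *Spr* were therefore lower in cKO livers and higher in HNF4A EE cells. Because *Gch1* differed by more than *Gchfr* in the cells, *Gchfr* was at 10.2 times *Gch1* in HNF4A EE cells and 23.3 times in control cells. *Dnajc12* was under the floor, at 0.17 FPKM in HNF4A EE cells and listed at 0 in control cells.

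Among enzymes beside the pathway and paralogs of its enzymes, more were lower than higher in cKO livers. Of 11 transaminases, tautomerases and paralogs of pathway enzymes, 9 passed the floor, and 6 were lower and 0 higher (4 and 1 with equal total FPKM). Of all expressed entries, 19.1% were lower and 14.8% higher (11.2% and 35.3% with equal total FPKM). *Aadat*, encoding an aminotransferase of broad substrate range, had 1.26 FPKM in cKO livers and 65.9 FPKM in control livers. *Got2*, the mitochondrial aspartate aminotransferase, which can also act on tyrosine, had 55.2 FPKM in cKO livers and 156 FPKM in control livers. In the cells, 2 of 7 such genes above the floor were higher and 1, *Mif*, was lower (439 FPKM in HNF4A EE cells, 788 FPKM in control cells, log2 ratio −0.84). All expressed entries of the cells had 22.5% higher and 22.9% lower.

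Genes that use the end products gave a mixed picture in livers and lower values in 3T3 cells. Of 8 such genes, cKO livers had 3 lower and 0 higher (2 and 1 with equal total FPKM). All expressed liver entries had 19.1% lower and 14.8% higher (11.2% and 35.3% with equal total FPKM). *Fh1*, the fumarase that takes the fumarate released by FAH, had 94.6 FPKM in cKO livers and 235 FPKM in control livers (−1.31). *Bdh1*, which converts acetoacetate to hydroxybutyrate, had 7.06 FPKM in cKO livers and 166 FPKM in control livers (−4.37), the largest difference of this list. *Acat1*, the mitochondrial thiolase of acetoacetate use, had 183 FPKM in cKO livers and 207 FPKM in control livers (−0.18). In HNF4A EE cells 5 of 7 were lower and 0 higher, with a median of −0.78. Among all expressed entries of the cells, 22.9% were lower and 22.5% higher. *Acat1* had 9.40 FPKM in HNF4A EE cells and 45.8 FPKM in control cells, and *Acat2*, the cytosolic thiolase that feeds cholesterol synthesis, had 16.3 FPKM in HNF4A EE cells and 73.9 FPKM in control cells. These are in the opposite direction to *Gch1*, *Gstz1* and *Fah* in the same cells.

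Other amino acid pathways served as a comparison. Of 8 genes of tryptophan breakdown, cKO livers had 6 lower and 0 higher (4 and 1 with equal total FPKM), with a median of −1.04 and a range from −6.03 (*Haao*) to 0.42 (*Tdo2*). Of 13 genes of branched-chain amino acid breakdown, 7 were lower and 0 higher (4 and 0 with equal total FPKM). They had a median of −0.50 and a range from −2.38 (*Bcat2*) to −0.06 (*Dld*). All expressed liver entries had 19.1% lower and 14.8% higher (11.2% and 35.3% with equal total FPKM). The 8 genes of phenylalanine and tyrosine breakdown, with 7 lower, a median of −1.17 and a range from −2.21 to −0.38, had a lower median than either and a narrower range than both. The lower end of the branched-chain range rests on *Bcat2* alone, as the next lowest gene was *Ivd* at −1.53. None of these differences between lists was tested, since genes are not replicates. In 3T3 cells, 1 of the 8 tryptophan genes passed the floor, against 4 of the 8 genes followed here and 11 of the 13 branched-chain genes.

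**Figure D4:**
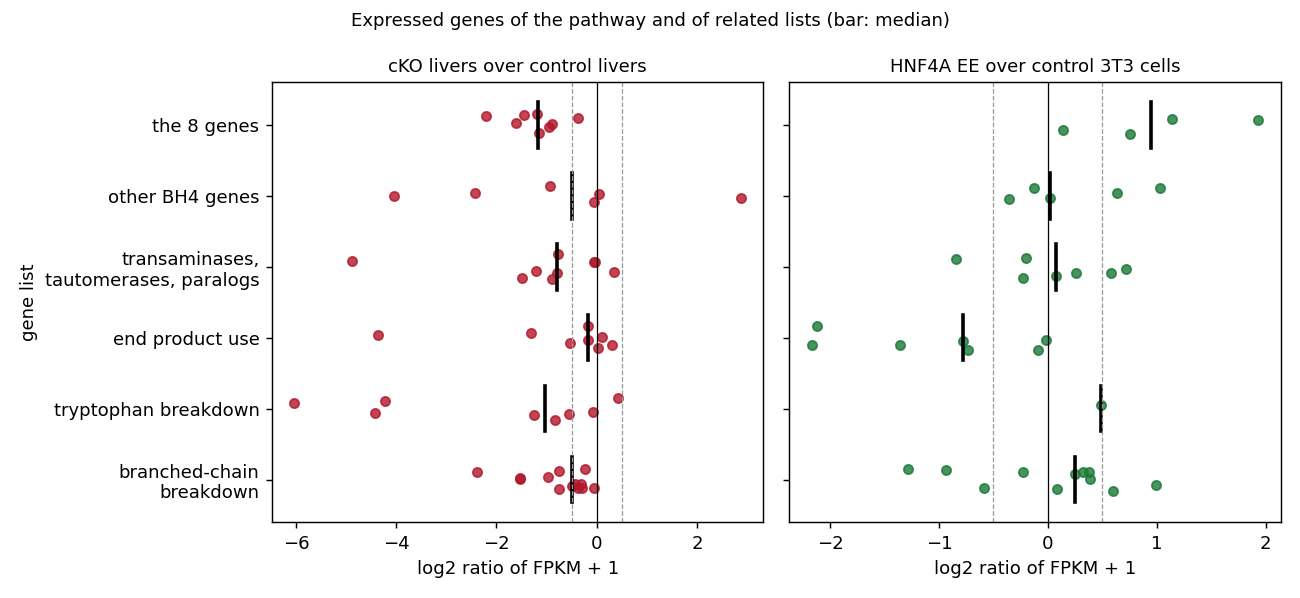
Log2 ratio of FPKM + 1 of each gene with a mean FPKM of 1 or more, by list, in cKO livers over control livers (left) and in HNF4A EE over control 3T3 cells (right). Points are genes, black bars are medians and dashed lines stand at −0.5 and 0.5. In livers the 8 genes lie between −2.21 and −0.38 around a median of −1.17. Tryptophan breakdown reaches −6.03, and branched-chain breakdown reaches −2.38 through *Bcat2*, with its next lowest gene at −1.53.

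*Tat* is a classic target of glucocorticoids, so 9 genes known to be induced by these hormones were read beside it. In cKO livers 5 were higher, 2 lower and 2 inside the limit, with a median of 0.74, while *Tat* was at −0.96. Of all expressed entries, 14.8% were higher and 19.1% lower. *Sgk1*, a kinase, had 79.5 FPKM in cKO livers and 11.4 FPKM in control livers, and the metallothionein *Mt2* had 1330 FPKM in cKO livers and 419 FPKM in control livers. *Tsc22d3*, encoding the glucocorticoid-induced leucine zipper protein, was lower like *Tat*, with 46.3 FPKM in cKO livers and 84.5 FPKM in control livers. *Fkbp5* was the other lower gene, with 37.9 FPKM in cKO livers and 60.5 FPKM in control livers. With equal total FPKM 7 were higher and 0 lower, against 35.3% and 11.2% of all expressed entries. *Tat* was then at −0.56. Hormone levels were not measured in these data.

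For 7 of the 8 genes the entry with the most similar 4 group values is given, by Euclidean distance between log2 values of FPKM + 1. *Tat* lay nearest to *Fbp1*, a gluconeogenic phosphatase, at a distance of 0.04. *Fbp1* had 555 FPKM in cKO livers and 1043 FPKM in control livers and is listed at 0 in both groups of cells. *Pcbd1* lay nearest to *Fxyd1* (0.16), *Qdpr* to *Got1* (0.57), *Hgd* to *Chchd10* (0.62), *Gch1* to *Abhd1* (0.64), *Gstz1* to *Scp2* (0.81) and *Fah* to *Aldh7a1*, of lysine breakdown (1.35). *Fah* thus had the largest of these 7 distances. The distances are not alike between genes. *Tat* and *Pcbd1* and their nearest entries are listed at or near 0 in both groups of cells, so mainly liver values set their distances. A distance over 4 values, with the tables normalized apart, describes likeness of level and difference only.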

How the data were processed

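RNA-seq covered 3 *Hnf4a* cKO livers, 3 control livers, 3 HNF4A EE and 3 control 3T3 samples. Per the submitters' notes, the authors used mm10, STAR 2.5.0b and Cufflinks 2.2.1. The deposited FPKM are 1 value per gene and group, merged over replicates, so depth is unknown, and how libraries were scaled is not stated. The authors' own log2 fold changes, p-values and q-values in these tables were not used. Log2 ratios of FPKM + 1 were computed with Python 3.11.15, pandas 2.3.3 and numpy 2.4.6. Entries with a mean of 1 FPKM or more counted as expressed, and ratios at or beyond 0.5 as lower or higher. Coordinates are from GENCODE M21 and promoters from RefSeq. Named were the 8 genes, up to 4 of each list with the largest ratios among genes at 5 FPKM or more, nearest entries and overlapping genes. *Alb*, *Fgb*, *Apoa1*, *Cps1*, *Acat1* in livers, *Mpo*, *Elane*, *Tdo2*, *Dld*, *Tsc22d3*, *Fkbp5* and *Slc6a19* were chosen after their values were seen. Some values are not reported here. The members and lists were chosen with earlier results of these data known. Alternatives were other pseudocounts, equal totals, centring, a limit of 1 and other floors.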

Additional observations from a re-analysis of the deposited data

How the results depend on the processing

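Over pseudocounts of 0.1 FPKM or none and centring on the median of expressed entries, the calls of the 8 genes in livers and of the 4 in 3T3 cells stayed as given, with medians between −1.19 and −1.16 in livers and between 0.95 and 1.01 in cells. Scaling each group to the same total FPKM moved the ratios of the 8 genes in livers by more than those settings did. It shifted the median of all expressed liver entries to 0.32, from −0.01, and that of the cells to 0.12. Under it 6 of the 8 genes were lower in cKO livers with a median of −0.78, as *Gstz1* came to −0.50, just short of the limit, and *Pcbd1* came to 0.01. *Fah*, at −1.82, remained the lowest. In the cells the median was then 1.08 and the same 3 genes were higher. Under equal totals the lower and higher shares of all liver entries were 11.2% and 35.3%, in place of 19.1% and 14.8%, those of the cells were 17.8% and 27.9%, the branched-chain list had 4 lower genes in livers, and the glucocorticoid list had 7 higher and 0 lower. At a limit of 1 on the log2 scale 5 of the 8 genes were lower in cKO livers and 2 of the 4 higher in the cells. With no floor, 9.10% of liver entries were lower and 10.8% of entries in the cells were higher. No paired analysis was possible because each table holds 1 merged value per group, and for the same reason no replicate could be left out. A difference of 1 gene can therefore rest on 1 sample without any sign of it in the tables.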

Other observations

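Transporters of aromatic amino acids showed no common direction. Of 7, 5 passed the floor in livers, and 2 were lower and 0 higher in cKO livers. Among all expressed liver entries, 19.1% were lower and 14.8% higher. *Slc16a10*, which carries aromatic amino acids across the plasma membrane, had 24.8 FPKM in cKO livers and 60.0 FPKM in control livers (log2 ratio −1.24), and *Slc43a1* had 3.40 FPKM in cKO livers and 5.57 FPKM in control livers (−0.58). With equal total FPKM 1 of the 5 was lower. In 3T3 cells 3 were higher and 2 lower of 5, against 22.5% and 22.9% of all expressed entries. However, 2 of the higher ones, *Slc43a2* and *Slc6a19*, passed the floor only through the HNF4A EE cells, which by itself favours a higher call. *Slc3a2*, the heavy chain shared by several amino acid transporters, had 181 FPKM in HNF4A EE cells and 93.7 FPKM in control cells, while *Slc7a5*, a light chain that pairs with it, had 57.4 FPKM in HNF4A EE cells and 98.9 FPKM in control cells. *Slc43a2* had 5.83 FPKM in HNF4A EE cells and 0.663 FPKM in control cells, and *Slc6a19* had 2.83 FPKM in HNF4A EE cells and 0.00775 FPKM in control cells.

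Of 9 other enzymes that use BH4 or aromatic amino acids, 3 passed the floor in livers. *Agmo*, a BH4-dependent enzyme that cleaves ether lipids, had 29.6 FPKM in cKO livers and 73.2 FPKM in control livers (−1.28), a difference close to that of *Qdpr*. *Ddc*, aromatic amino acid decarboxylase, had 6.10 FPKM in cKO livers and 16.1 FPKM in control livers (−1.26). In 3T3 cells 0 of the 9 passed the floor.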
